A study of Mus musculus with 8 samples.

Results

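The 10 transcripts described here are those of the core circadian clock loop: Arntl, Clock, Npas2, Per1, Per2, Per3, Cry1, Cry2, Nr1d1 and Nr1d2. They were taken by gene name from a table of 43629 genes with values, and each name matched 1 row. The set was chosen by the FPKM of these same libraries, in which several of the 10 had been seen to differ between the groups, so the group values below are a description of that contrast and carry no test. FPKM count fragments relative to the length of a transcript and the size of the library.

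The livers came from 8 male C57BL/6 mice, 7 to 8 weeks old, kept in a 12 h light and 12 h dark cycle, with 1 library per mouse. Of these, 4 mice received 5 µg of antagomiR-122, an antisense inhibitor of the liver microRNA miR-122, by tail vein, and the other 4 received antagomiR-control. All 8 were given 1 mg/kg CL316243, which stimulates the β3-adrenergic receptor and makes adipocytes hydrolyse triglyceride, under the skin 48 h later, and were killed 2 h after that. The study asked which liver transcripts differ with antagomiR-122 in mice stimulated in this way. The clock time of killing, by which clock transcripts are ordinarily ordered, is not given in the sources used here, and neither is whether the groups were killed side by side, so a difference in time and a difference in treatment cannot be told apart.

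In mammals the clock is a transcriptional feedback loop. BMAL1 (the product of Arntl) pairs with CLOCK or NPAS2 and binds E-box elements in the genes of the period (PER), cryptochrome (CRY) and REV-ERB proteins. PER and CRY return to the nucleus and inhibit BMAL1 and CLOCK, which closes the main loop. The REV-ERB nuclear receptors (Nr1d1 and Nr1d2) repress Arntl, Npas2, Clock and Cry1 through the response elements that ROR receptors activate, and the PAR bZIP factors add a further input through D-box elements. In liver the loop is entrained mainly by feeding and by hormones, and in a daily cycle Arntl and Npas2 peak at a different time from Nr1d1, Per3 and the PAR bZIP factor Dbp.

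The promoter stretches of 4 members that hold one of these elements are shown here, so that the letters searched for can be seen in place. They are RefSeq promoters on GRCm38.p6, 250 bases before to 50 after an annotated start, printed along the gene's own strand, with matches in capitals. The capitals mark the ROR element TAGGTCA in Arntl (chr7:113207261-113207560, plus strand), the D-box TTANGTAA in Per3 (chr4:151044616-151044915, minus strand) and the E-box CACGTG in Cry1 (chr10:85185005-85185304, minus strand) and Per1 (chr11:69098699-69098998, plus strand).
Arntl: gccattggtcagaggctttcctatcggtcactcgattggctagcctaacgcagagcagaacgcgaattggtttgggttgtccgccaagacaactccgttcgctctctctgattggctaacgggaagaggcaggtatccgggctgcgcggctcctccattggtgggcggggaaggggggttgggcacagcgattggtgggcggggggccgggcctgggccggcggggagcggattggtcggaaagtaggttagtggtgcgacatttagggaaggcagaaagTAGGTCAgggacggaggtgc
Per3: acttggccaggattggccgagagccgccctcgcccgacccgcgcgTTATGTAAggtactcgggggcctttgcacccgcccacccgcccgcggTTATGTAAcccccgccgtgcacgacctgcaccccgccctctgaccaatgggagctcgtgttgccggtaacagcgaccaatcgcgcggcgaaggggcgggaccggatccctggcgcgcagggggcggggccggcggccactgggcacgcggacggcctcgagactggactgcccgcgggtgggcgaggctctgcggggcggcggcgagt
Cry1: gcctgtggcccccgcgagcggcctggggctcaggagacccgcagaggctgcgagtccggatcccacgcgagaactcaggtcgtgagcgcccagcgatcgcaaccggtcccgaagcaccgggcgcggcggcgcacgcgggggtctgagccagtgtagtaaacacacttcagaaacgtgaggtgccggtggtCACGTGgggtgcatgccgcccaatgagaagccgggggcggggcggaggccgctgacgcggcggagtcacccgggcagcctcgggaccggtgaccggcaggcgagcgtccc
Per1: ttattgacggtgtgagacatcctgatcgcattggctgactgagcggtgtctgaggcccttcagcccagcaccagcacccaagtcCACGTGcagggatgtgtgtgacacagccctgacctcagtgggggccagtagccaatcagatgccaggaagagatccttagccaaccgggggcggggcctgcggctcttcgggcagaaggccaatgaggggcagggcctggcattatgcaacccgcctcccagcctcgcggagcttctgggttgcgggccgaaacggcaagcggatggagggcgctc

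Both strands of each window were searched, and positions are counted from the start, with 1 as the first transcribed base and negative numbers before it. The table matched 9 of the 10 members, all but Per2, in 13 windows, because Arntl and Per1 have 2 annotated starts and Clock has 3. In Arntl the ROR element ran from 31 to 37, just inside the transcript, in the window of the second start; 2.61% of 32851 promoter windows held this motif. Per3 held a D-box at -205 to -198 and another at -158 to -151, where 2.32% of windows held at least 1. The E-box began at -60 in Cry1 and at -166 in Per1, and 7.15% of windows held one. The full cAMP element TGACGTCA, held by 1.79% of windows, was in none of the 13, while the shorter run TGACG at its start, held by 20.8%, was in windows of Per1, Cry1 and Cry2 and is not capitalised. The windows of Clock, Npas2, Nr1d1 and Nr1d2 held none of these letters. Any of the 5 motifs was held by 6 of the members' 13 windows and by 29.7% of all windows. A match is a run of letters and not a measured binding site.

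**Figure D1:**
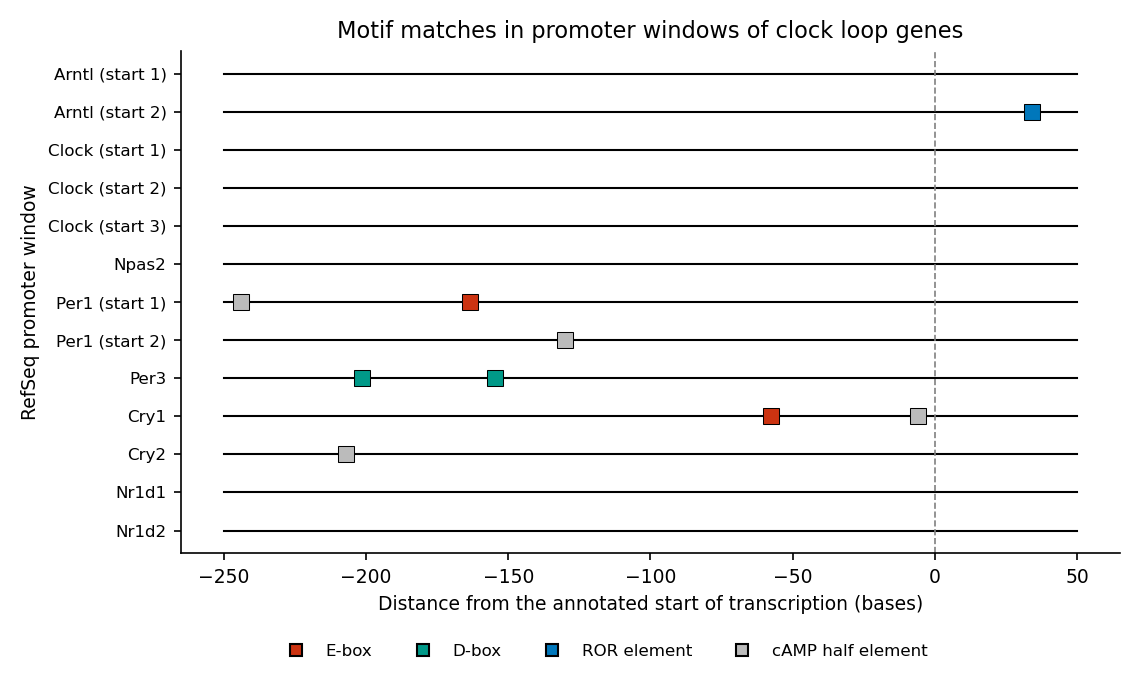
Motif matches in 13 RefSeq promoter windows of 9 clock loop genes, with distance from the annotated start on the x axis in bases and 1 line per window. Red squares are E-boxes (Per1, Cry1), green squares D-boxes (Per3), the blue square a ROR element (Arntl, start 2) and grey squares the short part of the cAMP element.

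The seed of miR-122 pairs with ACACTCC or CACTCCA in a 3′ UTR, and no member's annotated 3′ UTR held either run. This was so for the longest 3′ UTR of each member, from 288 bases in Nr1d1 to 6831 in Clock, and for the other annotated 3′ UTRs of the same genes. Of 21021 genes with an annotated 3′ UTR in GENCODE M21, 14.8% held a match in the longest one. The absence says only that these letters are not in the annotated windows.

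Beside the 10 members, the libraries were alike in most respects. Relative depth, read from the steps between low FPKM values, was 0.894 to 1.13 in 7 libraries and 2.38 in antagomiR-122 replicate 4, which also had the most genes above 0 (18918, against 17774 to 18311). The summed FPKM of antagomiR-122 replicate 4 was the lowest, at 541058 against 623513 to 701285. Relative depth is an estimate, since the ratio it rests on held only 5.18% to 15.4% of the low values compared. The number of fragments behind each value is unknown. Of 6 hepatocyte markers 5 were above 0, with a summed level of 11964 to 13895 FPKM in controls and 11943 to 14309 with antagomiR-122, while Alb was listed at 0 in all 8 libraries. Summed markers of other liver cells overlapped between the groups, at 178 to 243 and 180.4 to 227 FPKM for Kupffer cells, 77.3 to 83.3 and 78.5 to 93.5 for endothelial cells, 82.3 to 106 and 79.9 to 101 for stellate cells, and 2.71 to 4.04 and 2.196 to 3.90 for cholangiocytes. Dcn, with means of 74.3 and 70.4 FPKM, made up most of the stellate sum. Such sums can hide single markers, and stellate Lrat and cholangiocyte Epcam were lower with antagomiR-122 without overlap. Lrat ranged from 3.94 to 5.67 FPKM among controls, against 3.01 to 3.79 among antagomiR-122 mice. For Epcam the ranges were 0.597 to 0.735 and 0.361 to 0.587 FPKM. The other markers of these cell types overlapped. The genes listed for lymphocytes, Cd3e, Cd79a and Ptprc, summed to 5.14 to 9.09 and 5.14 to 9.21 FPKM. Most of that was Ptprc, at 6.12 ± 1.31 and 5.97 ± 1.54 FPKM (SD, n = 4 each). The sum therefore says little about Cd3e and Cd79a, each under 1 FPKM. Erythroid markers summed to 134 to 202 and 152 to 273 FPKM.

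With antagomiR-122 the activators of the loop were lower, the REV-ERB genes, Cry2 and Per3 higher, and Per1 and Per2 nearly level. The log2 fold changes, on the log2(FPKM + 1) scale from limma fitted over all genes, ran from -1.12 in Arntl to 1.07 in Per3. Of the 9 members with a mean of at least 1 FPKM, 5 were higher and 4 lower, and Npas2, at a mean of 0.763 FPKM over the 8 libraries, lay under that filter. None of the 9 passed the limma threshold (Benjamini-Hochberg adjusted p under 0.05), and the share called among all 11131 genes tested was 0%. At an unadjusted p under 0.05 limma had 828 genes, 419 higher and 409 lower. The groups did not overlap in 3 of the 9, all higher, against a background of 2.38% of genes higher and 2.14% lower; Npas2, outside the filter, did not overlap either and was lower. The authors' deposited table, made with Cuffdiff, marks 3 members as significantly higher (Nr1d1, Nr1d2, Cry2) and 4 as lower (Arntl, Clock, Npas2, Cry1), against 0.558% and 0.86% of 13259 genes. As the contrast chose the members, nothing is read from these counts. In whole liver, fewer cells of a type and less RNA per cell cannot be told apart.

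**Figure D2:**
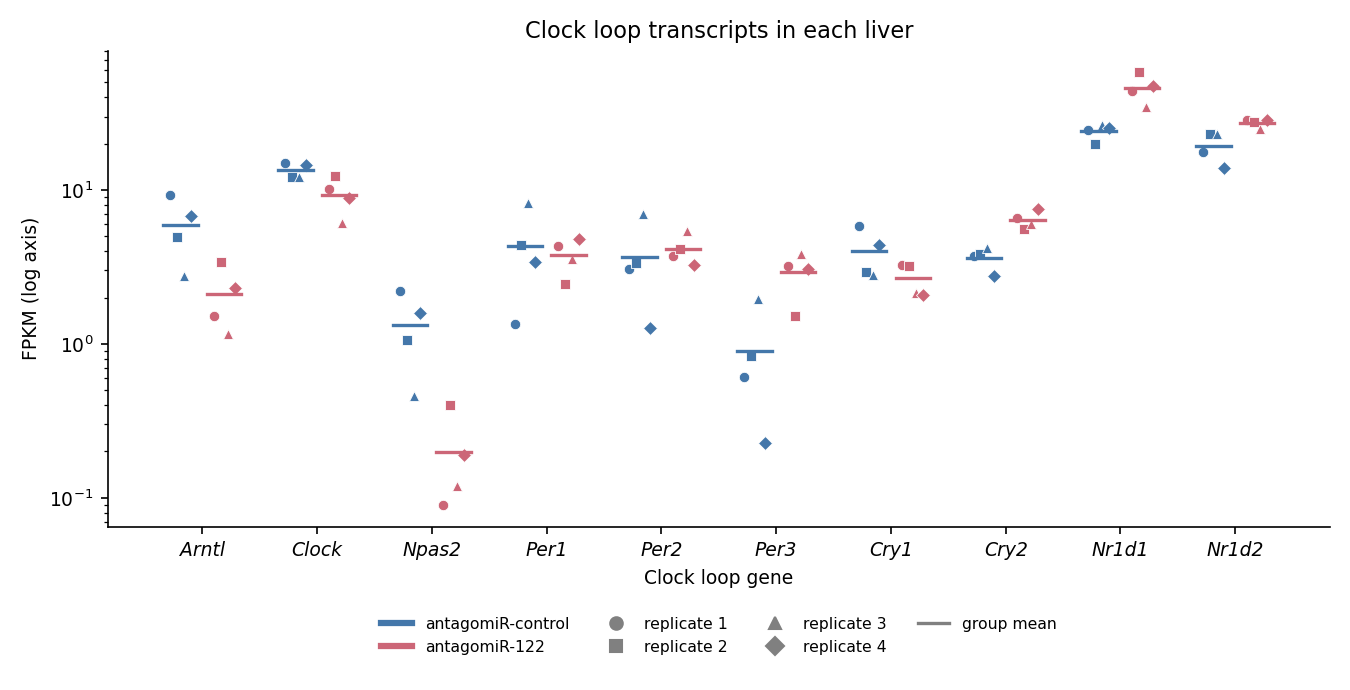
FPKM of the 10 clock loop genes in each liver, on a log axis, with blue for antagomiR-control and red for antagomiR-122 (4 mice each), marker shapes for replicates 1 to 4 and a bar for the group mean. Arntl and Npas2 sit lower with antagomiR-122 and Nr1d1, Nr1d2, Cry2 and Per3 higher, while control replicate 3 (blue triangle) and antagomiR-122 replicate 2 (red square) lie toward the other group in Arntl, Npas2 and Per3.

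Arntl (ENSMUSG00000055116; GRCm38 chromosome 7, 113207465 to 113314122, plus strand) encodes BMAL1, the one activator of the loop for which the list holds no paralogue. Its level was 9.25, 4.93, 2.77 and 6.75 FPKM in antagomiR-control replicates 1 to 4 and 1.51, 3.40, 1.16 and 2.33 FPKM in antagomiR-122 replicates 1 to 4. The mean was 2.82-fold lower with antagomiR-122, at 5.92 ± 2.75 against 2.10 ± 0.994 FPKM (SD, n = 4 each), and the log2 fold change was -1.12 ± 0.32 (SE). The groups overlapped through 1 mouse on each side: antagomiR-122 replicate 2 was above control replicate 3.

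Npas2 (ENSMUSG00000026077; chromosome 1, 39193731 to 39363236, plus strand), a paralogue of Clock that can take its place beside BMAL1, had the lowest mean of the 10 over all 8 libraries and the largest ratio between the groups. It was at 2.21, 1.06, 0.455 and 1.58 FPKM in the controls and at 0.0898, 0.401, 0.118 and 0.188 FPKM with antagomiR-122, in replicate order. The means, 1.33 ± 0.749 and 0.199 ± 0.141 FPKM (SD, n = 4 each), differed 6.65-fold, and the groups stood apart by a narrow gap between control replicate 3 and antagomiR-122 replicate 2. On the log2(FPKM + 1) scale the fold change was -0.90 ± 0.21 (SE, from a fit with the filter at 0.1 FPKM), and with a pseudocount of 0.1 in place of 1 it was -2.18.

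Clock (ENSMUSG00000029238; chromosome 5, 76212177 to 76304548, minus strand), the usual partner of BMAL1, was at 15.0, 12.2, 12.2 and 14.6 FPKM in the controls and at 10.2, 12.3, 6.06 and 8.81 FPKM with antagomiR-122. Replicates 1, 3 and 4 with antagomiR-122 lay below every control, and replicate 2 lay among the controls. The means were 13.5 ± 1.54 and 9.34 ± 2.60 FPKM (SD, n = 4 each), a ratio of 1.44 and a log2 fold change of -0.52 ± 0.17 (SE). The ratio of Clock to Npas2 within a mouse was 6.80 to 26.7 in the controls and 30.5 to 114 with antagomiR-122. This restates the larger difference between the groups in Npas2, and the highest ratio rests on Npas2 at 0.0898 FPKM.

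Nr1d1 (ENSMUSG00000020889; chromosome 11, 98767932 to 98775333, minus strand) encodes REV-ERBα, the main repressor of Arntl. It was at 24.5, 20.0, 26.4 and 25.4 FPKM in the controls and 44.3, 58.2, 34.8 and 47.3 FPKM with antagomiR-122. All 4 mice with antagomiR-122 were above all 4 controls, and the means of 24.1 ± 2.81 and 46.1 ± 9.64 FPKM (SD, n = 4 each) gave a log2 fold change of 0.89 ± 0.15 (SE). At its 3′ end Nr1d1 shares 1075 of its 7402 bases with Thra, the thyroid hormone receptor α gene on the opposite strand. Without a stated strand setting, reads there cannot be told apart; Thra itself was at 5.27 ± 0.880 FPKM without and 4.61 ± 0.257 with the inhibitor (SD, n = 4 each).

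Nr1d2 (ENSMUSG00000021775; chromosome 14, 18204054 to 18239127, minus strand), which encodes the related receptor REV-ERBβ, was at 17.6, 23.1, 23.0 and 13.9 FPKM in the controls and at 28.4, 27.8, 24.9 and 28.6 FPKM with antagomiR-122. Again the groups did not overlap. The means were 19.4 ± 4.48 and 27.5 ± 1.72 FPKM (SD, n = 4 each), 1.42-fold higher with antagomiR-122, with a log2 fold change of 0.51 ± 0.15 (SE). Because Nr1d1 was higher and Arntl lower, the ratio between them is bound to differ more than either gene, and it adds no separate result. The ratio of Nr1d1 to Arntl within a mouse was 2.64, 4.06, 9.54 and 3.77 in the controls and 29.3, 17.1, 30.0 and 20.3 with antagomiR-122. Control replicate 3 again came nearest to the other group.

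The cryptochromes, which carry the repression of CLOCK and BMAL1, went opposite ways. Cry2 (ENSMUSG00000068742; chromosome 2, 92403646 to 92434043, minus strand) was at 3.72, 3.82, 4.22 and 2.78 FPKM in the controls and at 6.60, 5.59, 6.05 and 7.49 FPKM with antagomiR-122, with no overlap. Its log2 fold change was 0.68 ± 0.12 (SE), from means of 3.64 ± 0.608 and 6.43 ± 0.817 FPKM (SD, n = 4 each). Cry1 (ENSMUSG00000020038; chromosome 10, 85131702 to 85185054, minus strand) was at 5.83, 2.92, 2.83 and 4.39 FPKM in the controls and at 3.28, 3.22, 2.151 and 2.09 FPKM with antagomiR-122, and the groups overlapped. Its log2 fold change was -0.41 ± 0.20 (SE).

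The ratio of Cry2 to Cry1 within a mouse was 0.639, 1.31, 1.49 and 0.633 in the controls and 2.01, 1.74, 2.82 and 3.58 with antagomiR-122. Cry1 was therefore the more abundant of the pair in 2 controls and Cry2 in the other 6 livers. A noncoding gene on the opposite strand, D930015M05Rik, overlaps 23417 of the 30398 bases of Cry2, and it too was higher, at 0.476 ± 0.206 and 0.949 ± 0.276 FPKM (SD, n = 4 each). Whether reads of one were counted for the other was not tested.

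Of the period genes, whose proteins bring the cryptochromes to the nucleus, Per3 alone differed by more than its standard error. Per3 (ENSMUSG00000028957; chromosome 4, 151003652 to 151044665, minus strand) was at 0.609, 0.841, 1.94 and 0.225 FPKM in the controls and at 3.22, 1.52, 3.83 and 3.09 FPKM with antagomiR-122. The means of 0.905 ± 0.738 and 2.92 ± 0.986 FPKM (SD, n = 4 each) differed 3.22-fold, with a log2 fold change of 1.07 ± 0.28 (SE), and control replicate 3 lay above antagomiR-122 replicate 2. All of Per3 lies inside the gene of the transcription activator Camta1 on the same strand, which was at 3.81 ± 0.713 and 3.94 ± 0.361 FPKM. Pseudogenes and unnamed gene models also overlap Arntl (Gm45355), Clock (Ube2n-ps1 and Gm43658) and Npas2 (Gm20428 and Gm3617), and their share in the counts was not tested.

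Per1 (ENSMUSG00000020893; chromosome 11, 69095217 to 69109960, plus strand), a period gene that cAMP and glucocorticoids also induce, was at 1.35, 4.42, 8.27 and 3.40 FPKM in the controls and at 4.32, 2.46, 3.56 and 4.77 FPKM with antagomiR-122. Per2 (ENSMUSG00000055866; chromosome 1, 91415982 to 91459324, minus strand) was at 3.05, 3.35, 6.97 and 1.27 FPKM in the controls and at 3.74, 4.13, 5.42 and 3.24 FPKM with antagomiR-122. In both, the 4 mice with antagomiR-122 lay within the range of the controls. The log2 fold changes were -0.02 ± 0.38 for Per1 and 0.26 ± 0.33 for Per2 (SE), and both changed sign when a single mouse was left out, to 0.29 for Per1 without control replicate 3 and to -0.04 for Per2 without control replicate 4. Errors of this size do not show that the 2 genes were unchanged. The coefficient of variation among controls was 66.6% for Per1 and 65.3% for Per2, against 26.7% and 22.6% with antagomiR-122.

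Set in order of level, which FPKM allow because they are scaled to length, the controls ran Nr1d1, Nr1d2, Clock, Arntl, Per1, Cry1, Per2, Cry2, Npas2 and Per3. Nr1d1 and Nr1d2 overlapped in range, as did Nr1d2 and Clock, and the 5 genes from Arntl to Cry2 overlapped each other throughout. With antagomiR-122 the order was Nr1d1, Nr1d2, Clock, Cry2, Per2, Per1, Per3, Cry1, Arntl and Npas2. There Nr1d1 lay above Nr1d2 and Nr1d2 above Clock without overlap, Clock and Cry2 overlapped, and Cry2 lay above Per2 without overlap. From Per2 down to Arntl each gene overlapped the next, and Npas2 lay below all others. Arntl thus stood next below Clock in the controls and next above Npas2 with antagomiR-122.

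**Figure D3:**
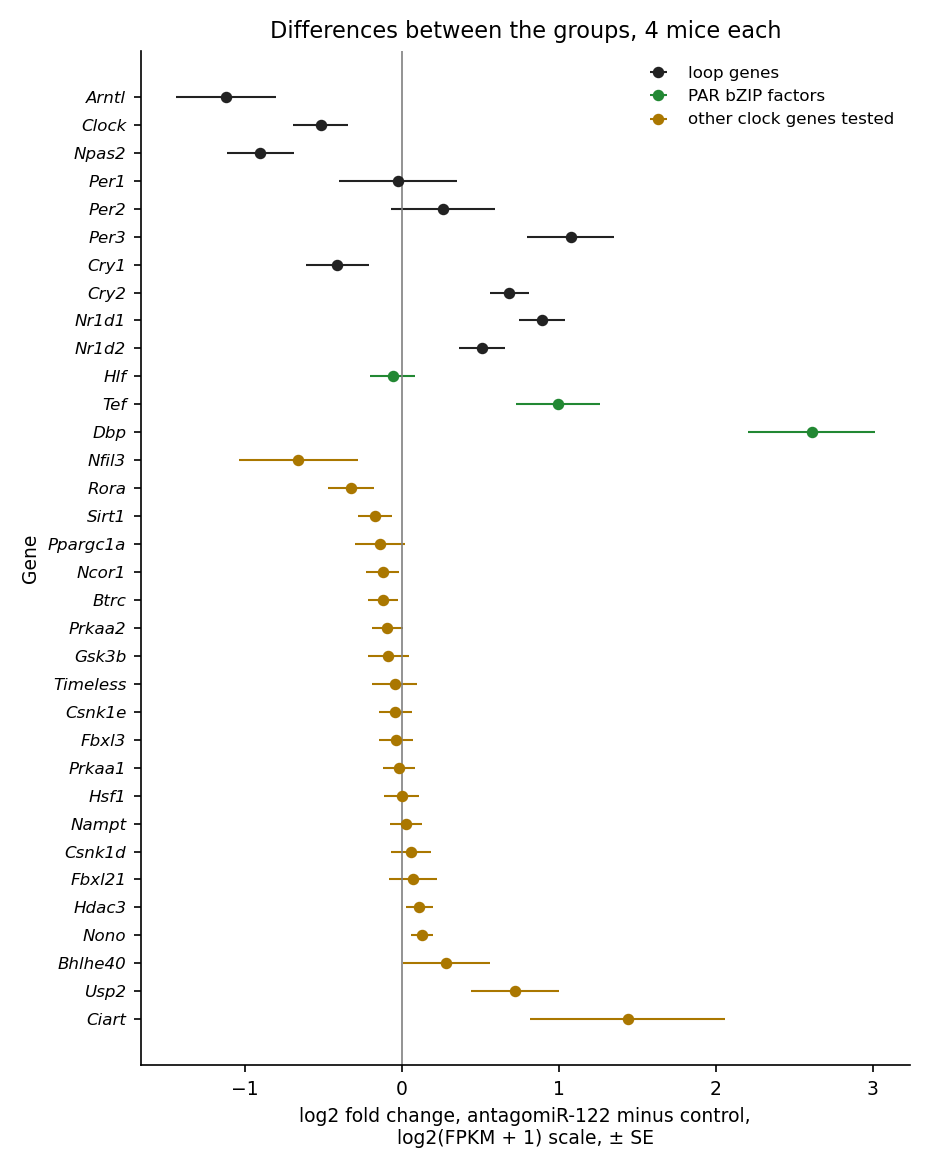
Log2 fold change between the groups (antagomiR-122 minus control, log2(FPKM + 1) scale, x axis) with its SE, for the 10 loop genes in black, 3 PAR bZIP factors in green and 21 other clock genes in brown, with 4 mice in each group. The loop genes spread from -1.12 (Arntl) to 1.07 (Per3), Dbp lies farthest out at 2.61, and most of the other clock genes lie near 0.

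Genes that act on the loop without belonging to it split in both directions. Of a list of 23 such genes, kinases, ubiquitin ligases and further repressors among them, 21 passed the filter, with 8 higher and 13 lower and a median log2 fold change of -0.04, beside 0.01 over all genes tested. With 1 mouse left out that median ran from -0.07 to 0.02, so it has no settled sign. In 0 of the 21 did the groups stand apart, and 0 passed limma. The largest differences were in Ciart, a repressor of CLOCK and BMAL1, at 2.23 ± 2.62 and 7.21 ± 4.79 FPKM, and Usp2, a deubiquitinase with a clock-driven transcript, at 1.90 ± 0.758 and 3.92 ± 1.82 FPKM (SD, n = 4 each). Bhlhe41 (DEC2, a repressor at E-boxes) was under the filter, at 0.264 ± 0.180 and 1.43 ± 0.944 FPKM, and there the groups did not overlap; nor did they for Rorb, at 0.0242 ± 0.00697 and 0.0102 ± 0.00429 FPKM, close to no signal.

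The PAR bZIP factors are outputs of the loop and bind D-boxes such as those shown above for Per3. Dbp was at 1.76, 2.28, 4.56 and 0.430 FPKM in the controls and at 17.9, 11.3, 25.5 and 15.1 FPKM with antagomiR-122, with no overlap. Over all genes tested, 2.38% were higher without overlap. Tef, at 20.2 ± 7.94 and 39.3 ± 7.28 FPKM, overlapped, and Hlf, at 20.1 ± 3.44 and 19.3 ± 3.34 FPKM (SD, n = 4 each), had a log2 fold change of -0.06. In Dbp, too, control replicate 3 and antagomiR-122 replicate 2 were the mice nearest to the other group.

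Mice that received the same antagomiR also differed from each other. This spread is apart from the difference between the group means, but it comes from the same libraries by which the members were chosen. The tests on it below are therefore not fully independent of that choice. Among the controls, replicate 1 had the highest Arntl, Npas2, Cry1 and Clock and the lowest Per1. Replicate 3 had the lowest Arntl, Npas2 and Cry1 and the highest Per1, Per2, Per3 and Cry2. With antagomiR-122, replicate 2 had the highest Arntl, Npas2 and Clock and the lowest Per1, Per3 and Cry2. Control replicate 3 was the control nearest to the antagomiR-122 mean in 6 of the 10 members, and antagomiR-122 replicate 2 was the nearest to the control mean in 5 of the 10.

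**Figure D4:**
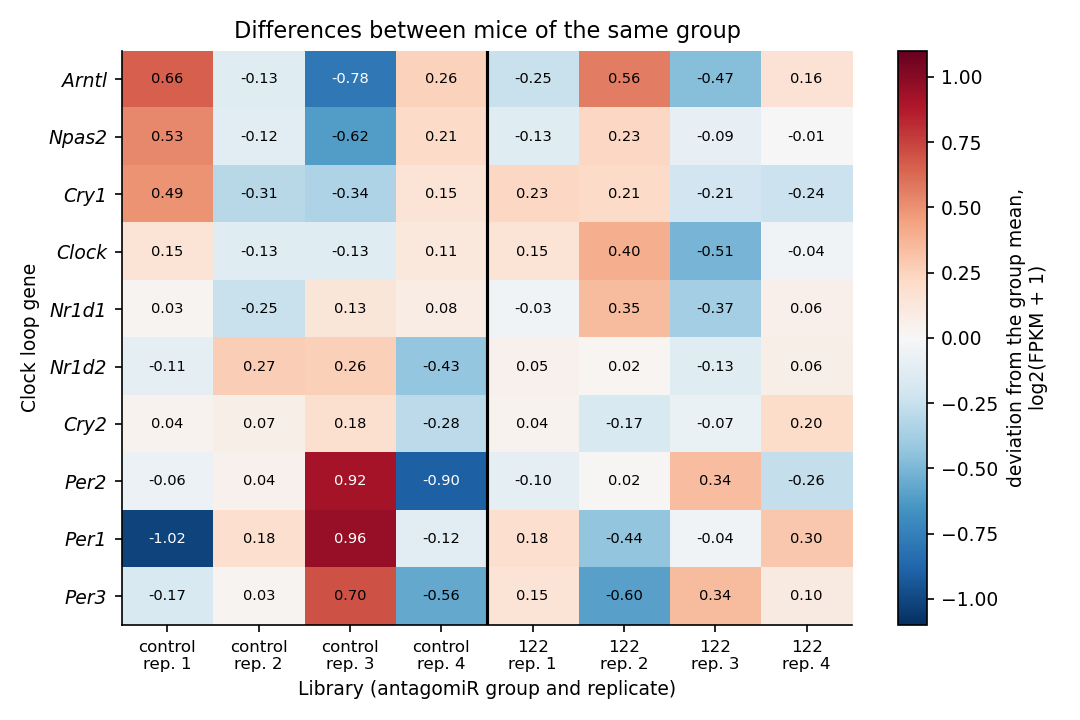
Deviation of each liver from the mean of its own group, on the log2(FPKM + 1) scale, with the 10 loop genes as rows and the 8 libraries as columns, red above and blue below the mean. In control replicates 1 and 3 and in antagomiR-122 replicate 2, Arntl and Npas2 deviate to the opposite side from Per1 and Per3.

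To measure this, group means were subtracted on the log2(FPKM + 1) scale, and the deviations of Arntl were correlated with those of each of the other 9 members over the 8 mice. Values were shuffled within each group in all 576 arrangements (exact permutation test, two-sided), and p-values were adjusted over the 9 pairs by Benjamini-Hochberg. Arntl and Npas2 varied together within the groups, with Pearson r = 0.937 (exact permutation p = 0.00347, adjusted 0.03125) and Spearman rho = 0.929 (p = 0.0104, adjusted 0.0469). Without control replicates 1 and 3, the mice farthest from the median of Arntl, r was 0.883. Among all other tested genes, 0.162% had an r with Arntl as far from 0.

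Per3 varied against Arntl, at r = -0.864 (exact permutation p = 0.0243, adjusted 0.0781) and rho = -0.905 (p = 0.00868, adjusted 0.0469), so that only the rank measure passed after adjustment. Without the same 2 mice r was -0.886. Per1 had r = -0.845 (exact permutation p = 0.033, adjusted 0.0781) and rho = -0.762 (adjusted 0.208), and without those 2 mice r was -0.557. Clock, which pairs with BMAL1, had r = 0.701 (exact permutation p = 0.0347, adjusted 0.0781) and rho = 0.619 (adjusted 0.242), and r was 0.805 without the 2 mice. By Pearson's r, 1 of the 9 pairs therefore passed. The share of other tested genes with an r as far from 0 was 1.26% for Per3, 1.80% for Per1 and 8.45% for Clock.

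For the REV-ERB genes and Cry2, which stood apart between the groups, no relation with Arntl within them passed the test, which does not show that there was none. Nr1d1 had r = 0.452 (exact permutation p = 0.267, adjusted 0.344) and rho = 0.310 (adjusted 0.469), positive where the group means went opposite ways. Single mice decided its size: r was 0.896 without control replicate 3, 0.928 without control replicates 1 and 3, 0.248 without antagomiR-122 replicate 3 and 0.186 without antagomiR-122 replicate 2. AntagomiR-122 replicate 2 held both the highest Nr1d1 and the highest Arntl of its group. Taken by group (n = 4 each), r of Arntl and Nr1d1 was -0.106 in the controls and 0.956 with antagomiR-122. For Nr1d2 it was -0.681 and 0.581, so the pooled values of both genes join groups of opposite sign. Nr1d2 and Cry2 had r = -0.440 and -0.410 (exact permutation, adjusted p = 0.451 and 0.422), with rho = -0.381 and -0.429 (adjusted 0.469 and 0.431). Cry1 had r = 0.731 and rho = 0.643 (exact permutation, adjusted p = 0.172 and 0.263), and Per2 r = -0.647 and rho = -0.571 (adjusted 0.224 and 0.302). Other tested genes with an r as far from 0 made up 6.60% for Cry1 and 12.3% for Per2. For Nr1d1, Nr1d2 and Cry2 that share was 32.0%, 33.6% and 37.5%.

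**Figure D5:**
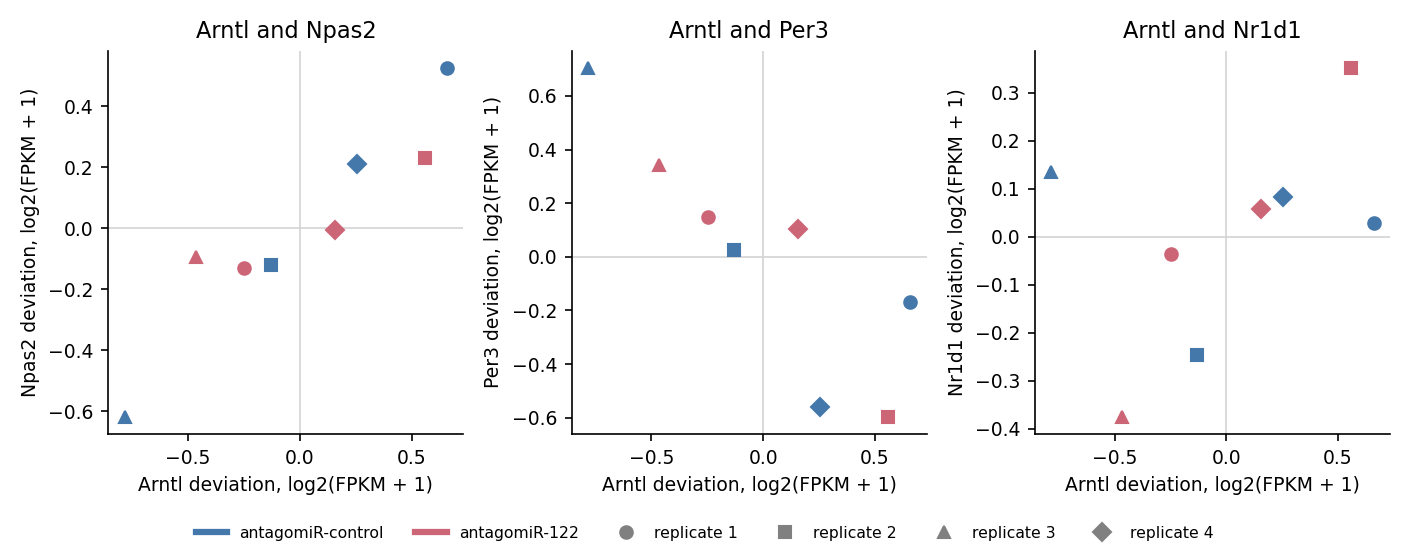
Deviations of Npas2, Per3 and Nr1d1 (y axes) against those of Arntl (x axes) from the mean of their own group, on the log2(FPKM + 1) scale, with 1 point per mouse, colours for the groups and shapes for replicates. Npas2 climbs with Arntl (r = 0.937), Per3 declines (r = -0.864) and Nr1d1 shows neither over all 8 mice (r = 0.452).

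Over the 8 libraries the genes outside the loop most like Arntl by Pearson's r on log2(FPKM + 1) were Chka (choline kinase α, 0.981), Dtx4 (0.971), Cyb561a3 (0.968), Lyrm7 (0.959) and Bdp1 (0.9499). Chka, the first enzyme of phosphatidylcholine synthesis from choline, had a mean of 51.5 ± 21.7 FPKM without and 19.5 ± 7.93 with the inhibitor (SD, n = 4 each), and its r within the groups was 0.954. Most like Nr1d1 were Mepce (0.962), Fancf (0.960), Chpf2 (0.956), Smap1 (0.954) and Plekhg3 (0.944). These are descriptions over 8 libraries that also share the group difference, and in each case only 4 tested genes reached an r of 0.95.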

How the data were processed

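Liver RNA of 8 mice was sequenced, with 1 library per mouse. Groups and replicate numbers come from the sample titles, and columns were matched to mice by group and number (0 were left unmatched). Per the submitters' processing notes, the tools were Cuffdiff, TopHat2 2.0.13, Cufflinks 2.2.1, bcl2fastq 2.15.0.4 and cutadapt 1.7.1, on GRCm38. Of the annotation release, the strand setting and any scaling, each was not given in the sources used here. FPKM per mouse and per group were deposited by the authors; they also deposited a log2 fold change (treated as a score, since some sizes are placeholders), a Cuffdiff score and a p-value and q-value per gene; only the Cuffdiff calls are printed here.

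The 11131 genes whose mean reached 1 FPKM were tested on log2(FPKM + 1) by limma 3.58.1 under R 4.3.3, two-sided, with trend and robust settings; p-values were adjusted by Benjamini-Hochberg and called at 0.05. Since the unit is not a count, count tests were left out. The pseudocount shrinks the fold change of low genes, and ratios are of mean FPKM. Relative depth is the modal ratio of values under 0.1 FPKM to those of control replicate 1, scaled to a median of 1. Within-group correlations used an exact permutation test. Promoters are from RefSeq (GRCm38.p6) and 3′ UTRs and overlaps from GENCODE M21, both on the build of the files. Scripts were tested on simulated data. Python 3.11.15 was used for the sequence searches.

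The members and lists were chosen with earlier results of these data known, and 1 gene of the list of other clock genes is not reported here. Named are all members, genes that overlap them, the list genes whose groups stood apart (with up to 2 of the largest fold changes where fewer did) and the 5 genes most like Arntl and Nr1d1 by r, gene models without a symbol left out. Some cell type markers and the remaining signal-induced genes were named after their values were seen. Alternatives were 2 pseudocounts, 3 filters, 2 scalings, a replicate block, a plain variance model and leaving out each mouse.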

Additional observations from a re-analysis of the deposited data

Results flagged for a closer look

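No value of the 10 loop genes was set far from the rest of its group, in 20 groups of 4 mice looked at. Over all 136 groups of 4 that were looked at, 4 had 1 library far from the other 3, where chance gives about 1 in 20. These were Tsc22d3 in antagomiR-122 replicate 4 (68.7 FPKM), Fos in antagomiR-control replicate 1 (2.46 FPKM), Elovl3 in antagomiR-122 replicate 2 (611 FPKM) and the number of genes above 0 in antagomiR-122 replicate 4 (18918).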

How the results depend on the processing

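The limma count stayed at 0 genes under both other pseudocounts, all 3 filters, both scalings, the plain variance model and with each mouse left out (0 to 0). Deviations of mice with the same replicate number correlated at 0.128, -0.238, -0.0611 and -0.184, and 1 of 4 controls correlated best with its own number. No pairing by number was therefore visible, and the labels do not say whether mice of the same number were handled together. With the replicate block limma also called 0 genes. The direction of each member's difference held in every setting except Per1, whose log2 fold change ran from -0.37 to 0.29 with 1 mouse left out, and Per2, from -0.04 to 0.57. The groups stood apart in 4 of the 10 members, in 5 with either scaling, where Clock joined them, and in 4 to 7 with 1 mouse left out. Without antagomiR-122 replicate 2 there were 7, with Arntl, Clock and Per3 added, and without antagomiR-control replicate 3 there were 6. Without antagomiR-122 replicate 4, the library with the highest relative depth, there were 4. Over all genes they stood apart in 503 with the main filter, in 315 with a filter at 5 FPKM, which tests fewer genes, and in 704 to 1035 with 1 mouse left out, where fewer values have to be apart. The pair of Arntl and Npas2 kept its adjusted p of 0.03125 with a pseudocount of 0.1 and with both scalings. With 1 mouse left out 0 of the 9 pairs passed (0 to 0), but 7 mice allow 144 arrangements and at best an adjusted p of 0.0625 for a single pair, so this says nothing about stability; r for Arntl and Npas2 was then 0.889 to 0.979. The list medians, whose alternatives were chosen after seeing the data, moved with single mice, from 0.75 to 1.21 for the PAR bZIP factors, -0.07 to 0.02 for other clock genes, -0.27 to -0.08 for signal-induced genes and -0.27 to -0.08 for rhythmic output genes. Of the 9 members searched, 5 held a promoter motif, Cry2 through the run TGACG alone, and 4 in the part before the start alone. These are counts of genes, some with more than 1 window, and have no share of all genes beside them. Counted by window, 6 of 13 (46.2%) held a motif, against 29.7% of all windows. The precision of low values such as Npas2 with antagomiR-122 cannot be given, since FPKM hold no counts.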

Other observations

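Liver genes known to cycle under the clock went in both directions. Of a list of 17 such genes 16 were tested, with 5 higher and 11 lower with antagomiR-122 and a median log2 fold change of -0.19, beside 0.01 over all genes tested. The list was not sorted by time of peak, so these counts and the median cannot show whether clock output differed. The median was -0.08 without antagomiR-122 replicate 4 and -0.11 without antagomiR-122 replicate 2 or antagomiR-control replicate 3. The groups stood apart in Leo1 alone, a subunit of the PAF1 complex, at 4.93 ± 0.413 FPKM without and 4.07 ± 0.372 with the inhibitor. Lower values without overlap were found in 2.14% of all genes tested. Rgs16, a regulator of G protein signalling, had the largest difference, at 16.4 ± 5.71 and 35.5 ± 24.2 FPKM (SD, n = 4 each), and Elovl3, a fatty acid elongase, had a log2 fold change of -0.72 ± 0.42 (SE). Wee1, a clock-driven cell cycle kinase, was listed at 0 in all 8 libraries.

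Genes that heat, glucocorticoid and cAMP signals to the liver clock induce were tested in 11 of 14 cases, with 2 higher and 9 lower and a median log2 fold change of -0.21, and 0 passed limma. Leaving out antagomiR-122 replicate 4 gave a median of -0.08, leaving out antagomiR-control replicate 3 gave -0.09 and leaving out antagomiR-control replicate 4 gave -0.10. Sgk1, a glucocorticoid-induced kinase, was at 14.7, 22.7, 16.8 and 14.3 FPKM in the controls and at 9.59, 6.99, 9.57 and 13.7 FPKM with antagomiR-122, and the groups stood apart. Over all genes tested, 2.14% were lower without overlap. Sik1, a cAMP-induced kinase, was at 4.94 ± 0.833 and 3.27 ± 0.920 FPKM, with overlap (SD, n = 4 each). The 4 heat shock genes tested had log2 fold changes of 0.05 in Hspa8, -0.08 in Hspa1b, -0.21 in Hsp90aa1 and -0.22 in Hsph1, named after their values were seen. The rest of the tested genes, likewise named afterwards, all overlapped between the groups. Their log2 fold changes were 0.34 in Zbtb16, -0.05 in Crem, -0.09 in Fkbp5, -0.27 in Tsc22d3 and -0.28 in Egr1.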
